A study of Mus musculus with 8 samples.

Results

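Hormone-sensing luminal genes mark the cells of the mammary duct that read circulating ovarian and pituitary hormones. The list holds 9 genes, and each was represented by the probe set, a group of short array probes, with the highest mean signal over all arrays among those annotated with that symbol alone. It covers the hormone receptors Pgr, Esr1 and Prlr, the paracrine signals Wnt4 and Tnfsf11, the transcription factors Foxa1 and Gata3, and the surface proteins Prom1 and Ly6d. Of the 9 genes, 8 were measured, by 14 probe sets, among 18193 genes on the arrays. No probe set used here was annotated as Prlr, the prolactin receptor, which was not analysed here.

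RNA came from macrophages that were sorted from collagenase-digested mammary glands with a Cd11b-PE antibody. The MMTV-iFGFR1 transgene carries FGF receptor 1 in an inducible form. Its promoter, from the mouse mammary tumour virus, works in mammary epithelium, and injected dimerizer activates the receptor. The 4 groups were MMTV-iFGFR1 transgenic mice after 48 hours of dimerizer, littermates without the transgene (called control) after 48 hours, transgenic mice after 4 weeks, and control littermates after 4 weeks. All mice were female, on the inbred FVB background and 6 weeks old when dimerizer began, and the control mice received it too. Each group had 2 arrays, each made from a pool of 3 mice, so 8 Affymetrix arrays were compared. The labels disagree for transgenic 4 weeks pool 2: one field calls its mice non-transgenic, while 3 fields (title, source and genotype) call them transgenic. It was treated as transgenic here.

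In the mammary duct, oestrogen acts through the receptor encoded by Esr1 in a subset of luminal cells, with the pioneer factor FOXA1 opening its binding sites and GATA3 maintaining luminal identity. Oestrogen induces the progesterone receptor, encoded by Pgr, and progesterone in turn makes these cells secrete WNT4 and RANKL, the product of Tnfsf11, which act on neighbouring basal and luminal cells. In the mouse, PROM1 (CD133) and LY6D are surface proteins used to recognise the hormone-sensing cells. Several of the genes have other sources too: Gata3 and Tnfsf11 are made by T lymphocytes, Ly6d by early B-lineage cells, and Esr1 by stromal cells and some leukocytes.

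The arrays carried one common scale, with a median signal between 96.4 and 126.9 units. Csf1r, which encodes the CSF1 receptor of macrophages, gave 68311 and 76618 units in transgenic and 93065 and 80298 in control pools at 48 hours. After 4 weeks the signal was 71036 and 75893 units in transgenic and 77590 and 86294 in control pools, so both transgenic pools were lower at both times, with log2 differences of −0.26 (SE 0.23) and −0.16 (SE 0.23) that did not pass limma. The sum of 8 macrophage markers, most of it from Csf1r and the lysozyme gene Lyz2, was 190060 to 199510 units in transgenic and 210750 to 257800 in control pools at 48 hours, and the groups overlapped at 4 weeks. The median over the 8 markers, as log2 signal minus the mean of the arrays, overlapped at 48 hours too, at −0.03 and −0.13 in transgenic and 0.11 and −0.05 in control pools. Control 4 weeks pool 2 stood apart in RNA quality: its actin 3'/5' signal ratio, a measure of transcript shortening, was 37.0, where the other 7 arrays had 6.84 to 13.9. The log2 of this ratio averaged 3.06 ± 0.32 in transgenic and 3.88 ± 0.95 in control pools (SD, n = 4 each; two-sided exact permutation p = 0.143, where 0.0286 is the smallest possible). Differences between groups are given on the log2(signal + 30.8) scale, an offset that shrinks the differences of dim genes. They were tested with limma over all 18193 genes. In bulk RNA, fewer cells of a type and less RNA per cell cannot be told apart.

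Of the measured genes, 4 (Pgr, Foxa1, Prom1 and Ly6d) shared an order of pools that turned round between the 2 times. After 48 hours both transgenic pools had a higher signal than both control pools. After 4 weeks both transgenic pools had a lower signal than both control pools. This order held for 4 of the 8 measured genes and for 2.99% of all genes, and for 3.23% of the 11054 genes with a mean signal above the median of all values. The opposite order, below at 48 hours and above at 4 weeks, held for none of the 8 and for 2.43% of all genes. The members were chosen with earlier results at 48 hours in view, so these counts are not independent evidence. A rule that the pools of a time do not overlap can only become easier to meet when a pool is left out, so the effect of single pools is given below as the size of each difference. None of the differences passed limma at an adjusted p of 0.05, so the pattern is a description of 8 arrays.

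**Figure D1:**
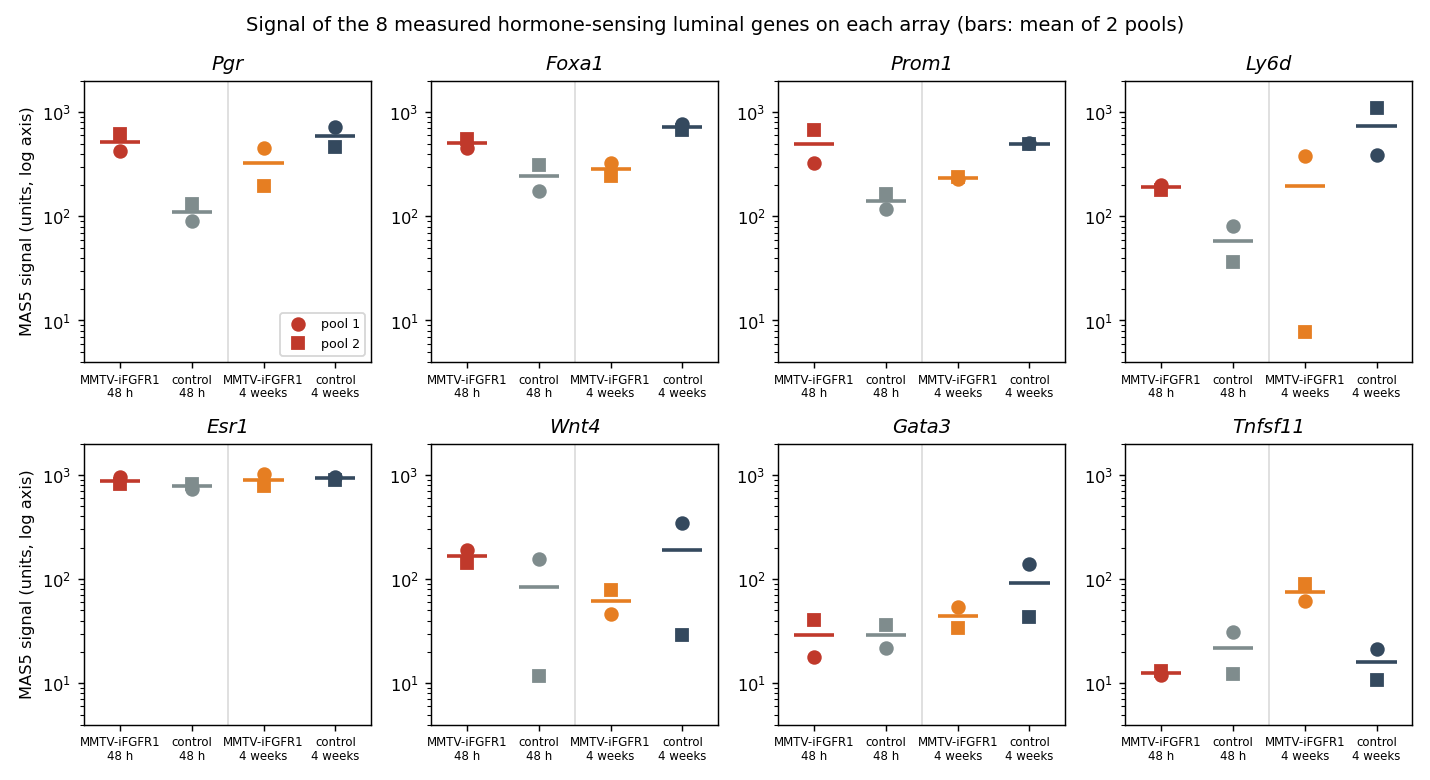
MAS5 signal (arbitrary units, log axis) of the 8 measured genes on each array, with circles for pool 1, squares for pool 2 and a bar at the mean of the 2 pools. Pgr, Foxa1, Prom1 and Ly6d lie above their controls at 48 hours and below them at 4 weeks, while Esr1 stays between 738 and 1022 units.

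Pgr, the progesterone receptor gene on chromosome 9 (8898900 to 8968611 of GRCm38.p6), gave 421 and 623 units in the transgenic pools at 48 hours, against 90.3 and 131.7 in the control pools. After 4 weeks it gave 455.7 and 194.6 units in transgenic pools, against 723.9 and 464.3 in control pools. The pools of a time did not overlap, but at 4 weeks transgenic pool 1 lay only just under control pool 2. The log2 difference at 48 hours was 1.95 (SE 0.46, 95% interval 0.92 to 2.98, limma adjusted p = 0.972). At 4 weeks it was −0.88 (SE 0.46, 95% interval −1.91 to 0.15, limma adjusted p = 0.969), −0.33 without transgenic 4 weeks pool 2, −1.44 without transgenic 4 weeks pool 1, −0.58 without control 4 weeks pool 1 and −1.19 without control 4 weeks pool 2. The change between the times was −2.84 (SE 0.65, limma adjusted p = 0.976), and its p ranked 21st of 18193. The same change for the general luminal keratin Krt8 was −2.80 (SE 0.48, limma adjusted p = 0.449), and its p ranked 7th.

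Pgr had 2 further probe sets, both dim. One gave 2.7 to 75.5 units and the other 6.4 to 75.7 units over the 8 arrays, below the median of every array. Their log2 differences at 48 hours were −0.10 (SE 0.67) and 0.13 (SE 0.46), far from the difference of the bright probe set. At 4 weeks they were −0.04 (SE 0.67) and −0.55 (SE 0.46). Averaging all 3 probe sets gave 0.66 at 48 hours and −0.49 at 4 weeks. Ordered by mean, the Pgr groups ran from control 4 weeks (594 ± 184 units) through transgenic 48 hours (522 ± 143) and transgenic 4 weeks (325 ± 185) to control 48 hours (111 ± 29.3, SD, n = 2 each). Neighbours in this order overlapped, except that transgenic 4 weeks and control 48 hours did not.

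Foxa1, whose product opens chromatin for steroid receptors, lies on chromosome 12 (57540628 to 57548029). It gave 449.8 and 556.9 units in the transgenic pools at 48 hours, against 176.8 and 309.1 in the control pools. Its 4 weeks signals were 326 and 246.2 units in transgenic pools, against 769 and 672.6 in control pools. The transgenic and control pools did not overlap at either time, though the control pools at 48 hours lay far apart from each other. The log2 difference was 1.00 (SE 0.36, 95% interval 0.19 to 1.81, limma adjusted p = 0.972) at 48 hours, and 0.64 without control 48 hours pool 1. It was −1.25 (SE 0.36, 95% interval −2.06 to −0.45, limma adjusted p = 0.926) at 4 weeks, −1.07 without transgenic 4 weeks pool 2 and −1.35 without control 4 weeks pool 2. The change between the times was −2.25 (SE 0.51, limma adjusted p = 0.976). By mean, Foxa1 ran from control 4 weeks (721 ± 68.2 units) through transgenic 48 hours (503 ± 75.7) and transgenic 4 weeks (286 ± 56.4) to control 48 hours (243 ± 93.6, SD, n = 2 each), and only the last 2 overlapped.

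Prom1, which encodes the pentaspan membrane protein CD133, lies on chromosome 5 (43993621 to 44102047). Its signal was 322.8 and 678.5 units in the transgenic pools at 48 hours, against 117.5 and 164.2 in the control pools. At 4 weeks it was 227 and 238.6 units in transgenic pools, against 502.1 and 496.5 in control pools. The pools at 4 weeks were close within each genotype and well apart between genotypes, whereas the transgenic pools at 48 hours were spread widely. The log2 difference was 1.56 (SE 0.42, 95% interval 0.62 to 2.49, limma adjusted p = 0.972) at 48 hours and −1.01 (SE 0.42, 95% interval −1.94 to −0.07, limma adjusted p = 0.926) at 4 weeks. Without transgenic 4 weeks pool 2 the 4 weeks value was −1.04, and −1.02 without control 4 weeks pool 2. The change between the times was −2.57 (SE 0.59, limma adjusted p = 0.976). Its groups by mean were transgenic 48 hours (501 ± 252 units), control 4 weeks (499 ± 3.96), transgenic 4 weeks (233 ± 8.20) and control 48 hours (141 ± 33.0, SD, n = 2 each), of which only the first pair overlapped.

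Ly6d, which encodes a small lipid-anchored protein of the Ly6 family, lies on chromosome 15 (74762056 to 74763567). It gave 202.3 and 181.2 units in the transgenic pools at 48 hours, against 80.2 and 36.5 in the control pools. At 4 weeks it gave 381.4 and 7.7 units in transgenic pools, against 389.8 and 1098.2 in control pools. Single pools set the size of this last difference, because transgenic pool 1 and control pool 1 were almost equal and the pools numbered 2 lay at opposite ends. The log2 difference was 1.36 (SE 0.94, 95% interval −0.73 to 3.46, limma adjusted p = 0.972) at 48 hours. It was −2.45 (SE 0.94, limma adjusted p = 0.926) at 4 weeks, −0.74 without transgenic 4 weeks pool 2, −1.74 without control 4 weeks pool 2 and −4.16 without transgenic 4 weeks pool 1. The size at 4 weeks also depended on the offset, at −3.59 with none and −1.70 with the offset at the median of all values. B-lineage cells are another source of Ly6d, and the summed signal of 8 measured markers of B and plasmacytoid dendritic cells was 7924 to 8315 units in transgenic and 7764 to 7922 in control pools at 48 hours. At 4 weeks that sum was 6158 to 7526 units in transgenic and 8757 to 9808 in control pools, most of it from 1 gene, Tcf4. The median over the 8 markers, as log2 signal minus the mean of the arrays, overlapped at 4 weeks, at −0.00 and −0.24 in transgenic and −0.39 and 0.42 in control pools. The part of these cells in the Ly6d signal was not tested.

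Promoters are shown for Pgr, Foxa1 and Prom1, which lay above both controls at 48 hours and below both at 4 weeks, and for which a window was given (none was for Ly6d). The windows are the 250 bases before a transcription start in RefSeq (GRCm38.p6), read 5' to 3' on the gene's strand. Windows were matched by symbol for 8 of the 9 genes. Prom1 had 2 windows, and the one further upstream is shown. Each of the 3 windows printed lies inside the annotated span of its gene, so a further start lies upstream of it. Capitals mark matches to any of the 7 motifs searched on both strands.
Pgr, chr9:8899583-8899832, plus strand: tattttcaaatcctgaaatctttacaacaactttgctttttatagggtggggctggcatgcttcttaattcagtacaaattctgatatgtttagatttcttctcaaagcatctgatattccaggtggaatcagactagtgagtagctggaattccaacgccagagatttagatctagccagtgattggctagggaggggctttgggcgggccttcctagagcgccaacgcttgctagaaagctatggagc
Foxa1, chr12:57546112-57546361, minus strand: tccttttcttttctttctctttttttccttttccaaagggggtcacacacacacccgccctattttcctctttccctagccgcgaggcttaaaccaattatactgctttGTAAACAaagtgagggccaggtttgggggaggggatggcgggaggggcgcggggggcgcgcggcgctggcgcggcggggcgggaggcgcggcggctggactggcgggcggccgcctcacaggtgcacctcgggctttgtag
Prom1, chr5:44101737-44101986, minus strand: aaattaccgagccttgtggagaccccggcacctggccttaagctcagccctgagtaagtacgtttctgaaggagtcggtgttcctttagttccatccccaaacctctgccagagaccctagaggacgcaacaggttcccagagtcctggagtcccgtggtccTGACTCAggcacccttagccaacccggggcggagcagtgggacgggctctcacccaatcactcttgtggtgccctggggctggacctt

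For the oestrogen receptor the motif was AGGTCA, part of its response element. For the progesterone receptor it was TGTTCT. Forkhead proteins were searched with TGTTTAC and, as an alternative, TGTTTGC. The motif of the GATA family was AGATAA. STAT5 was searched with TTCNNNGAA, and AP-1 with TGANTCA. No match in these 3 windows overlapped another. The Foxa1 window held a forkhead match, GTAAACA, starting 141 bases before the start, and 3.17% of 32851 RefSeq windows of this length held this motif. The printed Prom1 window held an AP-1 match starting 88 bases before the start, a motif found in 6.75% of all windows. The other Prom1 window, chr5:44094769-44095018, held an AP-1 match 189 bases and a progesterone receptor match 21 bases before its start, and 16.1% of all windows held this last motif. The Pgr window held none of the 7 motifs, where 14.0% of all windows held the oestrogen receptor motif. The GC content was 43.6% for Pgr, 62.0% for Foxa1 and 59.2% for Prom1, against a median of 52.4% over all windows.

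Esr1, the oestrogen receptor gene, did not follow this pattern. It gave 950.1 and 819.4 units in the transgenic pools at 48 hours, against 737.9 and 825.1 in the control pools. After 4 weeks it gave 1022.4 and 781.2 units in transgenic pools, against 958.3 and 895.4 in control pools. The groups overlapped at both times. The log2 difference was 0.17 (95% interval −0.39 to 0.73, limma adjusted p = 0.982) at 48 hours and −0.05 (95% interval −0.61 to 0.51, limma adjusted p = 0.999) at 4 weeks. The intervals leave room for a difference of either sign. A second Esr1 probe set gave 131.7 and 544.5 units in the transgenic pools at 48 hours, a range that holds both control values of 230.2 and 211.9. Stromal cells are another source of Esr1. The sum of 9 fibroblast markers was 72229 to 75211 units in transgenic and 38540 to 85539 in control pools at 48 hours. At 4 weeks it was 65949 to 85585 units in transgenic and 56779 to 76913 in control pools. The part of these cells in the Esr1 signal was not tested.

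Among the paracrine signals, Wnt4 was dim and uneven. It gave 190.6 and 142 units in the transgenic pools at 48 hours, against 156.2 and 11.8 in the control pools. Its 4 weeks signals were 45.9 and 78.2 units in transgenic pools, against 348.3 and 29.3 in control pools. Groups overlapped at both times, and the log2 differences of 1.13 (SE 0.90) and −0.72 (SE 0.90) were near the size of their errors. Single pools decided the first, which was 0.06 without control 48 hours pool 2 and 2.20 without control 48 hours pool 1. The value at 4 weeks was 0.61 without control 4 weeks pool 1, −2.05 without control 4 weeks pool 2 and −2.11 in a fit with actin ratio as a covariate. The second Wnt4 probe set had log2 differences of −0.24 (SE 0.64) at 48 hours and −0.15 (SE 0.64) at 4 weeks.

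Tnfsf11, which encodes RANKL, was below the array median on all 8 arrays. At 48 hours it gave 12.1 and 13.1 units in transgenic pools, against 31.3 and 12.3 in control pools. At 4 weeks it gave 61.3 and 90.4 units in transgenic pools, against 21.5 and 10.7 in control pools. Its pools were apart at 4 weeks only, with the transgenic ones higher, the opposite side from Pgr. The log2 difference at 4 weeks was 1.18 (SE 0.43, 95% interval 0.23 to 2.13, limma adjusted p = 0.926). The second probe set of Tnfsf11, with 5.4 to 30 units over the arrays, gave −0.27 (SE 0.35), so the sign rests on which probe set is read.

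Gata3, the luminal and T cell transcription factor, was above the array median on 1 of 8 arrays, control 4 weeks pool 1. It gave 17.9 and 40.8 units in the transgenic pools at 48 hours, against 21.7 and 35.9 in the control pools. After 4 weeks it gave 54.5 and 33.7 units in transgenic pools, against 139.9 and 43.7 in control pools. The groups overlapped, and the log2 differences were −0.00 (SE 0.53) at 48 hours and −0.60 (SE 0.53) at 4 weeks. The 4 weeks value was −0.0063 without control 4 weeks pool 1 and −1.20 without control 4 weeks pool 2. Summed over the 11 measured markers of T, NK and innate lymphoid cells, the other sources of Gata3 and Tnfsf11, the signal was 2986 to 3378 units in transgenic and 1686 to 2460 in control pools at 4 weeks, with Cd8a and Il7r as the brightest genes. The median over the 11 markers overlapped at 4 weeks, at 0.44 and −0.45 in transgenic and −0.47 and 0.17 in control pools, as log2 signal minus the mean of the arrays. At 48 hours the sum was 3010 to 4630 units in transgenic and 4508 to 7114 in control pools. The part of these cells in the Tnfsf11 signal was not tested.

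**Figure D2:**
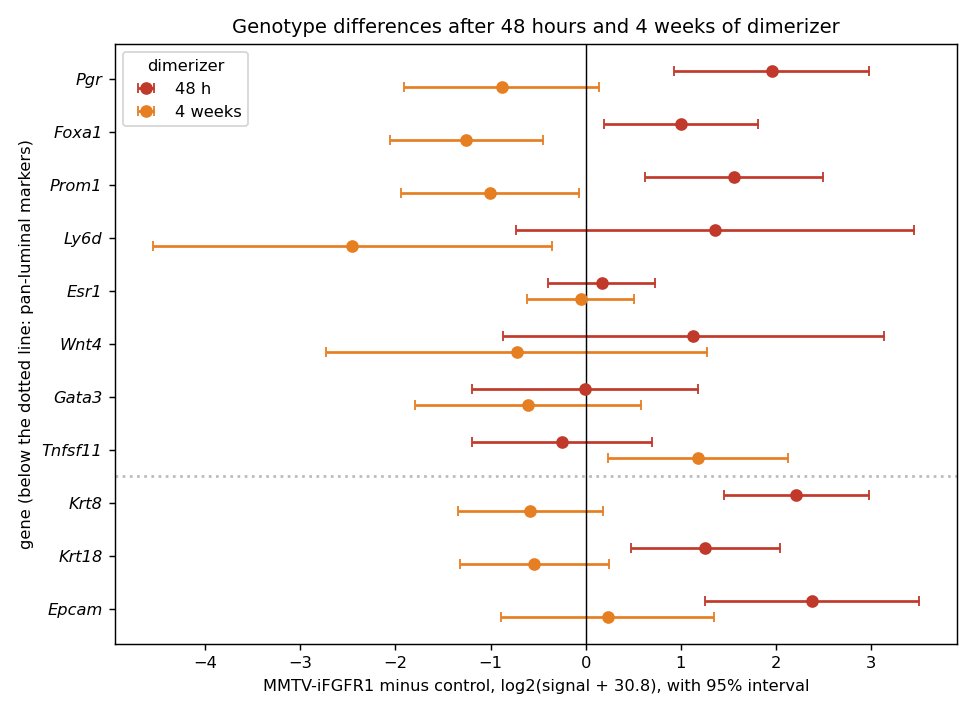
Difference between transgenic and control pools on the log2(signal + 30.8) scale at 48 hours and 4 weeks, with limma's 95% intervals, for the 8 measured genes and, below the dotted line, the pan-luminal markers Krt8, Krt18 and Epcam. The intervals of Pgr, Foxa1, Prom1 and all 3 pan-luminal markers lie above 0 at 48 hours. At 4 weeks those of Foxa1, Prom1 and Ly6d lie below 0, and that of Tnfsf11 lies above 0.

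Over the list, 6 of 8 measured genes had a positive log2 difference at 48 hours, with a median of 1.07, against a median of −0.00 over all 18193 genes. None passed the adjusted threshold, as for all genes (0.0% called), and 3 genes, Pgr, Foxa1 and Prom1, had an unadjusted p under 0.05 with a higher signal, as did 1.96% of all genes. Both transgenic pools stood above both control pools for 4 of the 8 genes and for 16.8% of all genes. The members were chosen with earlier results at 48 hours in view, so these counts are not independent evidence of their direction. The median was 0.63 without control 48 hours pool 2.

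At 4 weeks 7 of 8 had a negative difference, with a median of −0.80, against −0.04 over all genes. Again none passed (0.0% of all genes called). An unadjusted p under 0.05 with a lower signal was found for 3 genes, Foxa1, Prom1 and Ly6d, and for 3.35% of all genes. With a higher signal it was found for Tnfsf11 and for 1.9% of all genes. Both transgenic pools lay below both control pools for 4 of 8 genes and for 18.3% of all genes. Since the members were chosen with earlier results of these data known, these counts are not independent evidence either. The median was −0.29 without control 4 weeks pool 1 and −1.20 without control 4 weeks pool 2, whose actin ratio was 37.0.

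The test of the change between times gave 4 of 8 genes an unadjusted p under 0.05 with a more negative difference at 4 weeks, namely Pgr, Foxa1, Prom1 and Ly6d, against 2.51% of all genes. Tnfsf11 was the only one in the other direction, where 2.32% of all genes lay, and none passed the adjusted threshold (0.0% of all genes called). A positive difference at 48 hours together with a negative one at 4 weeks was found for 6 of 8 genes and for 26.4% of all genes. The change between times includes the 48 hours values that were in view when the members were chosen. These counts are therefore not independent evidence.

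**Figure D3:**
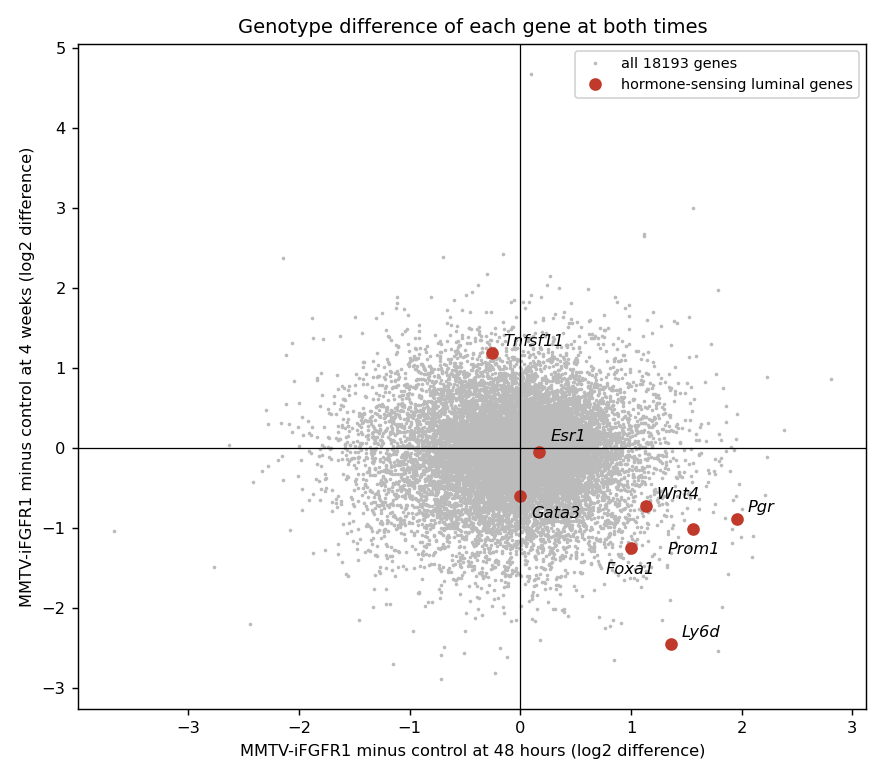
Difference between transgenic and control pools at 48 hours (horizontal axis) and at 4 weeks (vertical axis), both as log2 differences, for all 18193 genes in grey and the 8 measured hormone-sensing luminal genes in red. Pgr, Prom1, Foxa1, Wnt4 and Ly6d lie at the lower right, Esr1 near the origin and Tnfsf11 above it.

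Over both times together, the opposite differences left little. The log2 difference with time as a covariate was 0.53 (SE 0.53) for Pgr, −0.13 (SE 0.42) for Foxa1, 0.28 (SE 0.48) for Prom1 and −0.54 (SE 0.85) for Ly6d. None of the 8 genes passed limma (0.0% of all genes called), and for none did the transgenic pools lie on the same side at both times, as they lay higher for 2.51% and lower for 3.31% of all genes.

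The time comparisons use the same pools as the genotype comparisons, so they restate the signals from the other side. All mice were 6 weeks old when dimerizer began, so the 4 weeks pools came from older mice. Time on dimerizer and age therefore cannot be told apart. In transgenic pools, 4 weeks minus 48 hours was −0.71 (SE 0.46) for Pgr, −0.76 (SE 0.36) for Foxa1, −0.93 (SE 0.42) for Prom1 and −0.82 (SE 0.94) for Ly6d. In control pools it was 2.12 (SE 0.46) for Pgr, 1.5 (SE 0.36) for Foxa1, 1.64 (SE 0.42) for Prom1 and 3.00 (SE 0.94) for Ly6d. The control pools at 4 weeks lay above those at 48 hours for 6 of 8 genes, all but Wnt4 and Tnfsf11, and for 17.4% of all genes. In transgenic pools the 4 weeks signal was lower in both pools for 3 genes, Wnt4, Foxa1 and Prom1, and for 14.7% of all genes. In control pools 4 of the 8, Pgr, Foxa1, Prom1 and Ly6d, had an unadjusted p under 0.05 with a higher signal at 4 weeks, as did 3.44% of all genes, and none had one with a lower signal (2.88%). In transgenic pools Tnfsf11 alone had one, with a higher signal (1.45%), and none had a lower one (1.27%). None of the 8 passed in either comparison, where limma called 0.0% of genes in transgenic and 0.0055% in control pools. Both comparisons include the 48 hours values known when the members were chosen, so their counts are not independent evidence either.

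Of 15 pan-luminal markers, 10 had a positive difference at 48 hours, as did 9091 of all 18193 genes, and 11 had a negative one at 4 weeks, as did 9748 of all genes. The list medians were 0.89 and −0.41, and no marker passed limma. Krt8 was above the array median on all 8 arrays of these Cd11b-sorted cells. Krt8, a keratin of simple epithelia, gave 2747 and 3692 units in the transgenic pools at 48 hours, against 624.7 and 702.3 in the control pools. Its 4 weeks signals were 2549 and 1466 units in transgenic pools, against 3965 and 2137 in control pools, and here the groups overlapped. The sum of the 15 pan-luminal markers was 12697 to 13640 units in transgenic and 5014 to 5097 in control pools at 48 hours. At 4 weeks it was 7578 to 11828 units in transgenic and 10456 to 14431 in control pools, which overlapped, while the median over the 15 markers did not, at 0.19 and −0.34 in transgenic and 0.28 and 0.29 in control pools (log2 signal minus the mean of the arrays). Epcam, an epithelial adhesion protein, had log2 differences of 2.38 (SE 0.50) and 0.23 (SE 0.50). Of 7 measured neutrophil markers, 6 had a negative difference at 48 hours and 7 at 4 weeks, with none passing limma. Their sum, most of it from S100a8 and S100a9, was 4816 to 5331 units in transgenic and 10540 to 12529 in control pools at 48 hours. At 4 weeks it was 2500 to 3556 units in transgenic and 4892 to 16958 in control pools. The part of luminal, neutrophil or macrophage content in the signals of Pgr, Foxa1, Prom1 and Ly6d was not tested.

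The order seen for Pgr, higher in both transgenic pools at 48 hours and lower in both at 4 weeks, was found for 1 of the 15 pan-luminal markers, against the 2.99% of all genes. That gene, found after the values were seen, was Mlph, an adaptor of organelle transport, with 202.3 and 228.5 units in transgenic and 46.7 and 12 in control pools at 48 hours. After 4 weeks Mlph gave 127.9 and 126.8 units in transgenic and 322.2 and 439.6 in control pools. Among 11 luminal progenitor and alveolar markers it was Ltf, which encodes lactoferrin, and among the 8 myoepithelial markers there was none. Among 28 measured genes of hormone signalling it was Cited1, a transcriptional cofactor, at a dim level of 18.9 and 15.2 units in transgenic and 14.1 and 14.9 in control pools at 48 hours. Cited1 gave 6.2 and 12.7 units in transgenic and 17.6 and 16.4 in control pools after 4 weeks. Ltf and Cited1 were also named after their values were seen. The summed luminal progenitor and alveolar markers were 9060 to 9822 units in transgenic and 2202 to 2518 in control pools at 48 hours, and they overlapped at 4 weeks. Csn3, which encodes kappa-casein, had a log2 difference of 2.80 (SE 0.49) at 48 hours, its p ranking 3rd, and Wfdc18, a secreted epithelial protein gene of the pan-luminal list, 1.38 (SE 0.25), ranking 5th (limma adjusted p = 0.972 for each). The summed myoepithelial markers were 2880 to 7133 units in transgenic and 3685 to 4802 in control pools at 48 hours, and the groups overlapped at 4 weeks too. Limma's test of the change between times gave 6 of the 15 pan-luminal markers an unadjusted p under 0.05, more negative at 4 weeks. Of the 11 luminal progenitor and alveolar markers it gave 3, and 1 more positive. Over all genes the shares were 2.51% and 2.32%. In control pools 6 of the 15 and 6 of the 11 had such a p, higher at 4 weeks (3.44% of all genes). Lower at 4 weeks were 0 and 1 (2.88%). None passed the adjusted threshold. The difference between the lists was not tested.

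**Figure D4:**
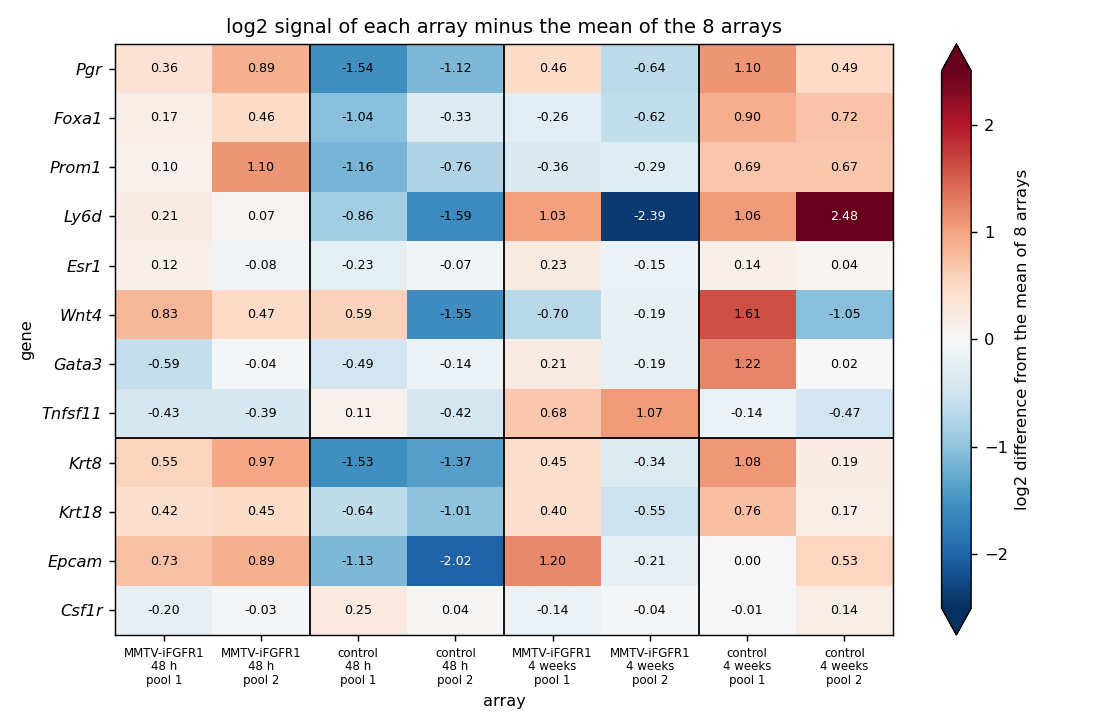
Signal of each array minus the mean of the 8 arrays, on the log2(signal + 30.8) scale, for the 8 measured genes (above the line) and for Krt8, Krt18, Epcam and the macrophage gene Csf1r. Pgr runs from −1.54 on control 48 hours pool 1 to 1.10 on control 4 weeks pool 1, and Csf1r stays between −0.20 and 0.25.

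The genes closest in profile were sought among 11048 other genes with a mean signal above the median of all values, by Pearson's r over the 8 arrays, as a description. The arrays of a group share the group differences given above, so these values are not independent of them. For the mean of the 8 measured genes these were Mypop (r = 0.97), Tmem205 (0.97), Elk3 (0.96), Krt19 (0.96) and Tars (0.95). For Pgr alone they were Nck2 (r = 0.98), Krt19 (0.98), Krt8 (0.98), Cdcp1 (0.98) and Elk3 (0.96). Krt19, a luminal keratin, gave 917.4 and 948.5 units in the transgenic pools at 48 hours, against 189.5 and 235.3 in the control pools. After 4 weeks it gave 755.2 and 311.6 units in transgenic pools, against 1611.6 and 736.6 in control pools, which overlapped.

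Of 30 other genes of oestrogen, progesterone and prolactin signalling, 28 were measured. At 48 hours 17 of these had a positive and 11 a negative difference, with a median of 0.06, and none passed. At 4 weeks 11 were positive and 17 negative, with a median of −0.14, and none passed. Both transgenic pools stood above both controls for 6 and below them for 2 at 48 hours, where 16.8% and 17.8% of all genes did. At 4 weeks the counts were 5 above and 9 below, where 14.3% and 18.3% of all genes were.

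Elf5, a transcription factor of alveolar differentiation downstream of prolactin, had the largest positive difference among the pathway genes named here at 48 hours. It gave 230.6 and 218 units in the transgenic pools, against 7.4 and 85.8 in the control pools, a log2 difference of 1.93 (SE 0.67, limma adjusted p = 0.972). Id4, a regulator of basal and luminal fate, gave 206.7 and 252.8 units in transgenic and 73.2 and 85.7 in control pools at 48 hours, a log2 difference of 1.24 (SE 0.45, limma adjusted p = 0.972). Both sets of pools were apart at 48 hours, and both genes overlapped at 4 weeks. Jak2, the kinase of the prolactin receptor, gave 4156 and 5377 units in transgenic and 7430 and 6263 in control pools at 48 hours. Xbp1, a factor of the secretory stress response, overlapped at that time with a log2 difference of 0.38 (SE 0.24).

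At 4 weeks Greb1, a cofactor and target of the oestrogen receptor, gave 18.5 and 9.4 units in transgenic pools, against 158.5 and 83.4 in control pools. Its log2 difference was −1.72 (SE 0.52, limma adjusted p = 0.926). Spdef, an epithelial transcription factor of the ETS family, gave 25.6 and 34.8 units in transgenic and 151.4 and 124 in control pools, a log2 difference of −1.47 (SE 0.59, limma adjusted p = 0.926). Both genes had lower signals in both transgenic pools at 4 weeks, and both overlapped at 48 hours. The receptor coregulators Nrip1 and Ncoa1 had log2 differences of 0.57 (SE 0.30) and −0.37 (SE 0.20) at 4 weeks.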

How the data were processed

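Gene expression was measured on 8 Affymetrix mouse arrays in 4 groups of 2 pools. Per the labels' protocols, samples of 3 mice were pooled for extraction (PicoPure), and the RNA went through 2 rounds of T7 amplification, a procedure that shortens transcripts. Each deposited value is the linear signal intensity of a probe set. MAS5 is the tool in the submitters' processing notes, with no version, and the authors' scaling was read from the values. Every array had a trimmed mean of 500.0 after 2% of probe sets were removed at each end. Detection calls were not used here, so low signals and absence could not be separated, and the lowest signal was 0.3.

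Of 45101 probe sets, 34945 had 1 gene symbol, 932 several and 9160 none, and 64 were array controls. For 34741 of the 34945 the Entrez gene was found in RefSeq, and 0 symbols needed an update. Each of 18193 genes was represented by its probe set with the highest mean signal, without a filter on low values, since a filter can keep a dim gene through the group where it is high. A filter at the array median on at least 2 arrays would pass 6 of the 8 measured genes, all but Tnfsf11 and Gata3. The tests used log2(signal + 30.8) without further scaling, the offset being the 25th percentile over the whole table.

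Tests used limma 3.58.1 in R 4.3.3 (a mean per group, trended eBayes prior, 4 residual and a median of 6.05 prior degrees of freedom), two-sided, with Benjamini-Hochberg adjustment over all genes and a threshold of 0.05. The pipeline was tested on simulated data. Since pools are the samples, p-values measure the spread between pools of 3 mice. The number of arrays limits the precision. Genes named were all members, the pathway genes with the 4 smallest p at each time, the 5 genes most like the members and Pgr, up to 2 genes of each marker list with the highest mean signal, and Krt8, Krt18 and Epcam. Mlph, Ltf and Cited1 were named after their values were seen. The members, lists and tests were chosen with earlier results of these data known. Alternatives covered scaling, offset, filter, probe set choice, the prior, weighting of arrays, pool number as a block, each time alone, the actin ratio as a covariate, the threshold, and each pool left out. Scripts for sequences and figures used Python 3.11.15 and matplotlib 3.10.9.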

Additional observations from a re-analysis of the deposited data

Results flagged for a closer look

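In Pgr, Foxa1, Prom1 and Ly6d every transgenic pool lay above its controls at 48 hours and below them at 4 weeks. This order held for 2.99% of all genes. The estimated genotype differences of these genes therefore had opposite signs at the 2 times. The 95% interval took in both signs for Pgr at 4 weeks (−1.91 to 0.15) and for Ly6d at 48 hours (−0.73 to 3.46). The members were chosen with earlier results in view, so this order is not independent evidence. The log2 difference at 4 weeks minus that at 48 hours was −2.84 (SE 0.65) for Pgr and −2.25 (SE 0.51) for Foxa1. It was −2.57 (SE 0.59) for Prom1 and −3.81 (SE 1.33) for Ly6d. The interaction was tested in limma and did not pass after adjustment over all genes (adjusted p = 0.976 for each of the 4). The same change for the general luminal keratin Krt8 was −2.80 (SE 0.48).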

How the results depend on the processing

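The depth of an array cannot be counted in reads, and dim genes (Tnfsf11, Gata3, Wnt4) were near the level where the offset sets the size of a difference. So was Ly6d on single arrays, such as transgenic 4 weeks pool 2 with 7.7 units. With no offset its difference was 1.82 at 48 hours and −3.59 at 4 weeks. With the offset at the median of all values it was 0.86 and −1.70. In Pgr, Foxa1, Prom1 and Ly6d most alternatives could not turn the sign of a difference, because they left the estimate as it was or, as with another offset or a pool left out, kept apart pools that do not overlap, and they say nothing of stability. Those that could, quantile normalization, the actin ratio as a covariate and, for Pgr, the mean of all probe sets, did not turn it. Neither difference of any of the 8 genes passed the threshold under any alternative (lowest adjusted p 0.53). The median of the 8 genes at 48 hours was 1.07, and it was 1.43 with no offset, 0.72 with the offset at the median of all values (108.1), 0.55 with the mean of all probe sets of a gene and 0.76 with the actin ratio as a covariate. Without 1 pool it ran from 0.63 to 1.07 at 48 hours and from −1.20 to −0.29 at 4 weeks. For the 8 genes these alternatives kept the chosen probe set or averaged all of a gene's. Read alone, the dim Pgr probe sets gave −0.10 (SE 0.67) and 0.13 (SE 0.46) at 48 hours. The second probe set gave −0.24 (SE 0.64) for Wnt4 at 48 hours and −0.27 (SE 0.35) for Tnfsf11 at 4 weeks. Under the alternatives themselves, signs turned only in genes with small or uneven differences. For Gata3 at 48 hours the value was 0.10 with quantile normalization, 0.0027 with the offset at the median, and without 1 pool it ran from −0.28 (without transgenic 48 hours pool 2) to 0.27 (without transgenic 48 hours pool 1), with 0.17 without control 48 hours pool 2. For Tnfsf11 at 48 hours the range without 1 pool was −0.52 to 0.0099, its upper end without control 48 hours pool 1. For Esr1 at 4 weeks it was −0.24 to 0.14 (upper end without transgenic 4 weeks pool 2), and for Wnt4 −2.05 to 0.61 (upper end without control 4 weeks pool 1). The cause was not tested.

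Over all genes, limma called 1 gene for time in control pools, and 0 with the offset at the median, with the filter on the mean signal, with the mean of all probe sets, without the trend and with array weights, 2 with the actin ratio as a covariate and 2 at an adjusted p of 0.1. Fitted alone, the 4 arrays of a time gave 1 called gene at 48 hours and 1 at 4 weeks. Without 1 pool the calls ran from 0 to 3 for time in control pools, and from 0 to 1 in each of the other 5 comparisons. With the pool number as a replicate block, 2 genes were called at 4 weeks and 4 for time in control pools, and none of the 2 was among the 8 genes. Whether the numbers pair the pools was checked by the correlation of pool 1 minus pool 2 between groups over 11054 genes, which ran from −0.11 to 0.19, with 3 of the 6 group pairs above 0.1. Since not every pair was, the pool numbers were not taken as pairing the pools. The count of 4 genes above their controls at 48 hours and below them at 4 weeks was also 4 after quantile normalization, an alternative added later, where 2.79% of all genes met the rule. Without a pool the rule only becomes easier to meet (4.46% to 6.96% of all genes), so those counts could not fall.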
